A study of Mus musculus with 8 samples.

Results

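A set of 10 genes of the tripartite motif (TRIM) family with known roles in antiviral immunity was followed by RNA-Seq in mouse bone marrow-derived macrophages (BMDMs): Trim12c, Trim14, Trim21, Trim25, Trim26, Trim30a, Trim30b, Trim30d, Trim34a and Trim56. They were chosen by name for their immune roles, with earlier results of these data known. They are 10 of the 68 annotated Trim genes and of the 54532 genes counted, and all 10 were matched and passed the filter on low counts. The 8 libraries formed 4 groups of 2. The record numbers of the SN-011 libraries do not run on from those of the other groups, so they were added to the archive separately. Whether they were also prepared or sequenced apart is not stated, so a batch cannot be told apart from SN-011 in its comparisons. BMDMs came from wild-type (WT) mice, or from Trex1-/- mice, which lack a DNA exonuclease in every cell and which the study bred from heterozygous parents, while its WT mice were purchased. All mice were 6 to 8 weeks old, and marrow was grown for 7 days in medium with L929 cell supernatant. Trex1-/- cells received DMSO as vehicle, H151 or SN-011 for 12 h. H151 and SN-011 are small-molecule antagonists of STING, the adaptor downstream of the cytosolic DNA sensor cGAS. The labels give 500 nM for H151 and no concentration for SN-011, for which the methods of the study name the same one. WT cells received DMSO by the study's scheme of the experiment, which the labels do not give sample by sample. The labels do not say that libraries 1 and 2 of a group came from separate animals, and the study describes them as independent experiments, so p-values measure the spread between 2 libraries a group, whose animals are not named.

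Typical TRIM proteins share a RING domain, a B-box and a coiled coil, and most act as E3 ubiquitin ligases. Many of their genes are induced by type I interferon, and the proteins then restrict viruses directly or tune the sensing pathways that start the interferon response. In mouse, a number of them, including the Trim30 and Trim12 genes, lie in an expanded cluster on chromosome 7. The comparisons ask how these transcripts differed when Trex1 was lost, and how they differed again when STING was blocked.

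Total counts ran from 11845470 to 17284863 per library, so 1 count was worth 0.0581 to 0.0848 CPM (counts scaled to a common library size and corrected by the trimmed mean of M-values, TMM). The 10 genes had between 46 and 9964 counts in a library. Trex1 itself was listed at 0 counts in all 8 libraries because its annotated exons lie wholly within those of Atrip, so the deletion could not be checked from these counts. Atrip, named after its values were seen, was at 14.1 and 17.4 CPM in WT, 64.7 and 70.3 CPM in vehicle-treated Trex1-/- cells and 54.2 to 57.0 CPM with an antagonist, so WT and Trex1-/- libraries did not overlap at this locus. The 8 macrophage markers summed to between 29944 and 32109 CPM in every library, mostly as Lyz2, and 3 of the 8 were called higher in Trex1-/- than in WT and 1 lower with each antagonist. Of these markers, Fcgr1 was at 240.6 and 224.9 CPM in WT, 492.8 and 532.8 CPM in Trex1-/- cells and 334.6 to 390.8 CPM with an antagonist. Markers of stroma (4 of 4 called lower in Trex1-/- than in WT) summed to 2064 to 2260 CPM in WT and 844 to 1195 CPM in the Trex1-/- libraries. Those of neutrophils or progenitors summed to 2.44 to 3.38 CPM and 11.9 to 20.6 CPM, with S100a8 the main part of that sum. The T cell list gave 33.3 to 33.9 CPM and 18.1 to 21.6 CPM, which was nearly all Cd4, while Cd3e, Cd3g and Cd8a had at most 3 counts in any library and 0 in WT and vehicle-treated cells. The B cell, dendritic cell and mast cell markers each summed to 2.94 CPM or less. The stroma, neutrophil or progenitor and Cd4 differences ran with genotype, while Fcgr1 ran with both genotype and antagonist, in the same direction as the TRIM genes. Their part in the results was not tested. These markers are named after their values were seen. In bulk RNA, fewer cells of a type and less RNA per cell cannot be told apart.

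The starts of these genes were read because the transcripts moved together. Windows of 250 bases before to 50 bases after each start were taken from RefSeq (GRCm38.p6), and 9 of the 10 genes had one. Trim14 had none. The letters GAAANNGAA or their reverse complement TTCNNTTTC, the core of the interferon-stimulated response element (ISRE), were found in 7 of the 9 genes and in 8.56% of all 32851 windows. The gamma-activated site letters TTCNNNGAA, which read alike on both strands, were in none of the 9 and in 8.3% of all windows. Among the other Trim genes beside them on chromosome 7, Trim5, Trim12a and Trim34b held the ISRE letters, Trim30c held only the gamma-activated site letters and Trim6 held neither. The matches of 5 genes are printed 5′ to 3′ on the strand of the gene, with the ISRE letters in capitals, to show how alike the Trim30a and Trim30d starts are and how the others differ.
Trim30a: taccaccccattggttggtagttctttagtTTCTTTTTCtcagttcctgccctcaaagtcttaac
Trim30d: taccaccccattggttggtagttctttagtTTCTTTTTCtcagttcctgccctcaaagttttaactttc
Trim12c: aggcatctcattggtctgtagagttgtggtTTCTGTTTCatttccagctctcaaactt
Trim34a: ggtttggagtTTCAGTTTCttttctctgca
Trim21: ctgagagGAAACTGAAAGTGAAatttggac
They lie at chr7:104465194-104465258 (minus strand), chr7:104507851-104507919 (minus), chr7:104353350-104353407 (minus), chr7:104244458-104244487 (plus) and chr7:102565447-102565476 (minus). The Trim30a and Trim30d windows were 93.6% identical over 295 aligned bases, and the motif began 35 and 40 bases before their starts. Trim30a has another annotated start, whose window was 88.2% identical to that of Trim30d over 255 bases and held the motif 3 bases after the start. In Trim12c it began 28 bases before the start. In Trim34a and Trim21 it lay after the start, and Trim21 held 2 overlapping copies that together make the capitals. Trim25 and Trim26 also held a match, and no match was found in the windows of Trim30b and Trim56. The Trim30b window (chr7:104358597-104358896) lies inside the gene as counted, which runs from base 104355382 to base 104369884 on the minus strand. The upstream end of that gene was not read. A match is a description of the letters and not a bound site.

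Per kilobase of exon not shared with other genes, Trim25 was the highest of the 10 transcripts in every group and Trim30a the second. Trim25 stood at 77.7 CPM per kb in WT and 113.5 in Trex1-/- BMDMs, and Trim30a at 38.3 and 93.98. Trim30b was the lowest throughout, at 0.612 CPM per kb in WT and 1.79 in Trex1-/- cells. Trim30d moved most in the order, from rank 6 in WT (12.9 CPM per kb) to rank 3 in Trex1-/- cells (37.2 CPM per kb), and it was at rank 5 with either antagonist. In WT, Trim12c and Trim14 overlapped between libraries, as did Trim30d and Trim34a. In Trex1-/- cells the overlapping neighbours were Trim14 and Trim12c, Trim12c and Trim34a, and Trim26 and Trim21. With H151 they were Trim34a and Trim26, and with SN-011 Trim12c and Trim30d.

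All 10 TRIM transcripts were higher in Trex1-/- than in WT BMDMs at an adjusted p under 0.05 (called, edgeR quasi-likelihood test with Benjamini-Hochberg adjustment over 14591 genes), with fold changes from 1.17 for Trim26 to 2.94 for Trim30b. Of all tested genes, 9.27% were called higher and 7.11% lower. Both Trex1-/- libraries lay above both WT libraries for each of the 10, as for 28.6% of all genes. The median log2 fold change was 0.78 over the 10 genes and -0.00 over all genes. Among the 10, 7 (all but Trim14, Trim30b and Trim30d) also belong to M7core, a STING-responsive gene list drawn up in the same project, so their direction is not independent evidence.

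The Trim30 genes had the largest differences. Trim30a restrains NF-κB signalling by promoting loss of TAB2 and TAB3. It was at 169.8 and 145.1 CPM in WT, 403.3 and 369.4 CPM in Trex1-/- cells, 210.9 and 231.1 CPM with H151, and 220.2 and 228.9 CPM with SN-011. Both vehicle-treated Trex1-/- libraries stood apart above the other 6, and both WT libraries lay below every antagonist library. The log2 fold change of Trex1-/- against WT was 1.29 ± 0.08 (SE, n = 2 libraries a group, edgeR adjusted p 8.08e-08). Trim30d is a close paralog of Trim30a, at 90.2% identity over the coding sequence. It was at 52.0 and 44.9 CPM in WT, 140.8 and 138.4 CPM in Trex1-/- cells, 67.8 and 75.9 CPM with H151, and 76.6 and 75.4 CPM with SN-011. Again the groups of WT, antagonist and vehicle libraries did not overlap, and the log2 fold change against WT was 1.53 ± 0.08 (edgeR adjusted p 2.03e-08). Of the 100-base stretches in each transcript set, 4.41% for Trim30a and 4.57% for Trim30d occur in the other gene, so few reads could not be assigned between them.

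Trim30b, another Trim30 paralog, was scarce. WT libraries held 83 and 46 counts, or 6.10 and 3.11 CPM, against 13.3 and 13.6 CPM in Trex1-/- cells, 6.27 and 6.51 CPM with H151, and 7.26 and 6.45 CPM with SN-011. The WT libraries stood further apart in proportion than those of any other group, while all 6 Trex1-/- libraries lay above them. The log2 fold change was 1.56 with a 95% interval of 1.06 to 2.05 (edgeR adjusted p 0.000309). It ranged from 1.13 to 2.09 over the alternative settings and was called in all of them.

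Trim34a and Trim12c lie in the same cluster and are relatives of the retrovirus restriction factors TRIM34 and TRIM5 of primates. Trim34a was at 25.6 and 21.9 CPM in WT, 58.8 and 51.1 CPM in Trex1-/- cells, 30.4 and 32.9 CPM with H151, and 32.2 and 38.8 CPM with SN-011. Its log2 fold change against WT was 1.21 ± 0.12 (edgeR adjusted p 6.09e-06). Its value is less certain than most, since 39.0% of its 100-base stretches occur in Trim34b or in an overlapping antisense gene, and reads that fit more than 1 gene were not counted. Trim12c was at 68.8 and 71.4 CPM in WT, 100.1 and 106.2 CPM in Trex1-/- cells, 76.7 and 82.3 CPM with H151, and 72.5 and 83.4 CPM with SN-011. The vehicle-treated Trex1-/- libraries were again the highest of the 8, and the log2 fold change against WT was 0.56 ± 0.08 (edgeR adjusted p 0.000184). Trim12c shares 8.05% of its 100-base stretches with other genes, mainly Trim5 and Trim12a.

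Outside the cluster, Trim21 showed the largest difference. The protein binds antibody on incoming virus in the cytosol and sends it for degradation. It was at 37.9 and 32.6 CPM in WT, 67.8 and 62.9 CPM in Trex1-/- cells, 40.2 and 47.2 CPM with H151, and 44.2 and 45.1 CPM with SN-011. The antagonist libraries lay between the other groups, and the log2 fold change of Trex1-/- against WT was 0.89 ± 0.10 (edgeR adjusted p 2.13e-05). Trim14 lacks a RING domain and acts as an adaptor in MAVS and cGAS signalling. It was at 51.3 and 50.4 CPM in WT, 82.4 and 78.4 CPM in Trex1-/- cells, 62.65 and 62.66 CPM with H151, and 66.6 and 67.1 CPM with SN-011. Its 4 groups did not overlap at any point, with a log2 fold change against WT of 0.66 ± 0.07 (edgeR adjusted p 1.14e-05). Overlapping genes on the other strand share 38.0% of its exonic bases, which the counting leaves out.

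Trim25, the ligase best known for activating the RNA sensor RIG-I, was the most abundant. It was at 427.5 and 466.5 CPM in WT, 650.2 and 656.3 CPM in Trex1-/- cells, 545.7 and 573.5 CPM with H151, and 534.9 and 576.4 CPM with SN-011. The antagonist libraries fell between WT and vehicle without touching either, and the log2 fold change of Trex1-/- against WT was 0.55 ± 0.06 (edgeR adjusted p 2.36e-05). Trim56, a ligase reported to act on cGAS and STING, was at 69.3 and 67.0 CPM in WT, 89.3 and 91.2 CPM in Trex1-/- cells, 76.7 and 81.0 CPM with H151, and 74.6 and 82.8 CPM with SN-011. Its log2 fold change against WT was 0.41 ± 0.07 (edgeR adjusted p 0.00120). Trim26, a ligase described in the control of IRF3, was at 103.9 and 104.0 CPM in WT, 118.7 and 124.6 CPM in Trex1-/- cells, 103.3 and 106.5 CPM with H151, and 107.4 and 108.5 CPM with SN-011. This was the smallest difference of the 10, at 0.23 ± 0.06 on the log2 scale (edgeR adjusted p 0.0185). The Trim26 call held in 8 of 15 alternatives, with edgeR or DESeq2 adjusted p from 0.0165 to 0.132. It was lost with DESeq2, with total counts as the only scaling, with a filter at 1 count, and when any single WT or vehicle-treated Trex1-/- library was left out (0.125 and 0.122 without WT library 1 or 2, 0.0505 and 0.132 without Trex1-/- library 1 or 2).

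**Figure D1:**
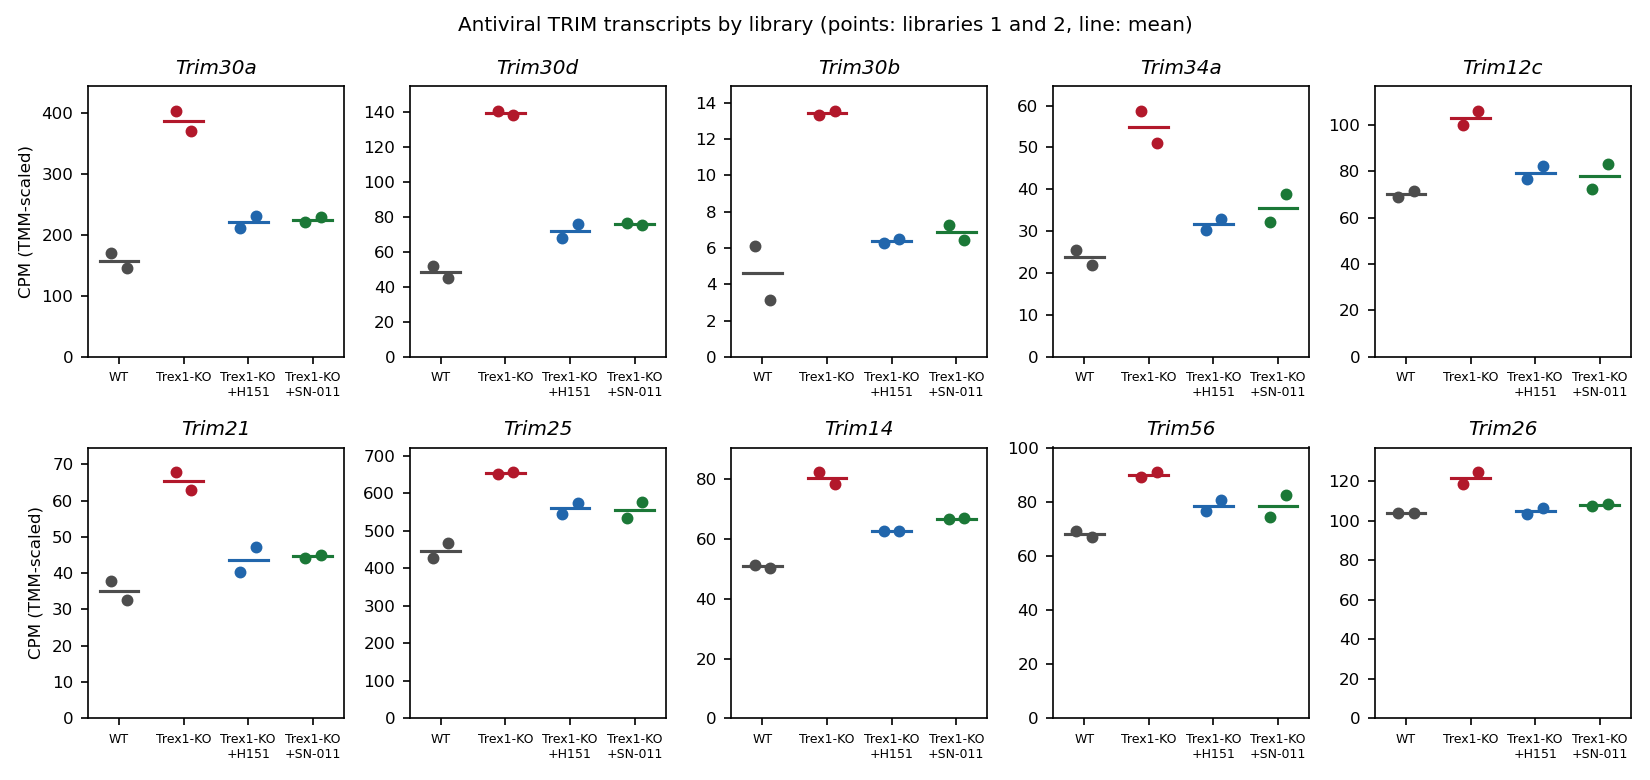
CPM (TMM-scaled, linear axis from 0) of each of the 10 TRIM transcripts in the 4 groups, with a point for each of 2 libraries and a line at their mean. Both vehicle-treated Trex1-/- libraries are the highest in all 10 panels, from 13.3 and 13.6 CPM for Trim30b to 650.2 and 656.3 CPM for Trim25.

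H151 lowered 7 of the 10 TRIM transcripts in Trex1-/- BMDMs and raised none (edgeR quasi-likelihood test), where 1.84% of all genes were called lower and 0.384% higher. Trim30b was at 0.475, Trim30d at 0.516 and Trim30a at 0.572 of the vehicle level. The log2 fold changes were -1.07 ± 0.22 for Trim30b (edgeR adjusted p 0.0183), -0.96 ± 0.08 for Trim30d (1.24e-05) and -0.80 ± 0.08 for Trim30a (3.65e-05). Trim34a changed by -0.79 ± 0.11 (0.00111), Trim21 by -0.58 ± 0.10 (0.00389), Trim12c by -0.38 ± 0.08 (0.0182) and Trim14 by -0.36 ± 0.07 (0.00915). The 3 that did not pass were Trim25 at -0.22 (95% interval -0.35 to -0.09, edgeR adjusted p 0.0953), Trim26 at -0.21 (-0.34 to -0.08, 0.118) and Trim56 at -0.19 (-0.35 to -0.04, 0.305). Both H151 libraries lay below both vehicle libraries for all 10 genes, as for 17.9% of all genes. The median was -0.48 over the 10 genes and 0.00 over all genes.

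Trim21, Trim30a, Trim30d and Trim34a were called lower with H151 under all 15 alternatives. The Trim30b call was lost without Trex1-/- library 1 or 2 or H151 library 1 (edgeR adjusted p 0.0559, 0.0788 and 0.0600, range over alternatives 5.6e-07 to 0.0788), the Trim12c call without Trex1-/- library 2 or H151 library 1 (0.165 and 0.109, range 0.000288 to 0.165), and the Trim14 call without Trex1-/- library 1 or with only both groups in the fit (0.0978 and 0.0571, range 0.00203 to 0.0978). Trim25 passed with the replicate block (0.0328) and with the filter at 1 count (0.00403, range 0.00403 to 0.382).

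SN-011 lowered 6 of the 10 and raised none (edgeR quasi-likelihood test), against 2.22% of all genes called lower and 0.110% higher. The same vehicle libraries serve as the control for both antagonists, so the results of H151 and SN-011 are not independent. Trim30b changed by -0.96 ± 0.22 on the log2 scale (edgeR adjusted p 0.0330), Trim30d by -0.88 ± 0.08 (2.94e-05) and Trim30a by -0.78 ± 0.08 (6.69e-05). Trim34a changed by -0.64 ± 0.11 (0.00590), Trim21 by -0.55 ± 0.10 (0.00561) and Trim12c by -0.41 ± 0.08 (0.0101). Not called were Trim14 at -0.27 (95% interval -0.41 to -0.12, edgeR adjusted p 0.0583), Trim25 at -0.23 (-0.36 to -0.10, 0.0692), Trim56 at -0.20 (-0.35 to -0.05, 0.230) and Trim26 at -0.17 (-0.30 to -0.04, 0.224). Both SN-011 libraries lay below both vehicle libraries for all 10 genes, as for 21.6% of all genes, and the median was -0.48 against 0.01 over all genes.

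Only Trim30a and Trim30d of the 10 were called lower with SN-011 under all 15 alternatives. The number called fell to 2 without SN-011 library 1, to 3 without Trex1-/- library 1, and to 4 without SN-011 library 2 or Trex1-/- library 2. Trim30b was lost without any of these 4 libraries (edgeR adjusted p 0.222, 0.106, 0.265 and 0.0918, range over alternatives 1.24e-06 to 0.265). Trim21 was lost without SN-011 library 1 or 2 or Trex1-/- library 1 (0.116, 0.0634 and 0.0536, range 1.03e-07 to 0.116), Trim34a without SN-011 library 1 or Trex1-/- library 1 (0.177 and 0.0625, range 1.05e-07 to 0.177), and Trim12c without SN-011 library 1 or Trex1-/- library 2 (0.256 and 0.0707, range 4.11e-05 to 0.256). Trim14 passed in 5 of 15 alternatives (range 0.0279 to 0.401) and Trim25 in 6 of 15 (range 0.00195 to 0.587). Both passed with the replicate block (0.0495 and 0.0238), without H151 library 1 (0.0469 and 0.0309) and without H151 library 2 (0.0404 and 0.0256).

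**Figure D2:**
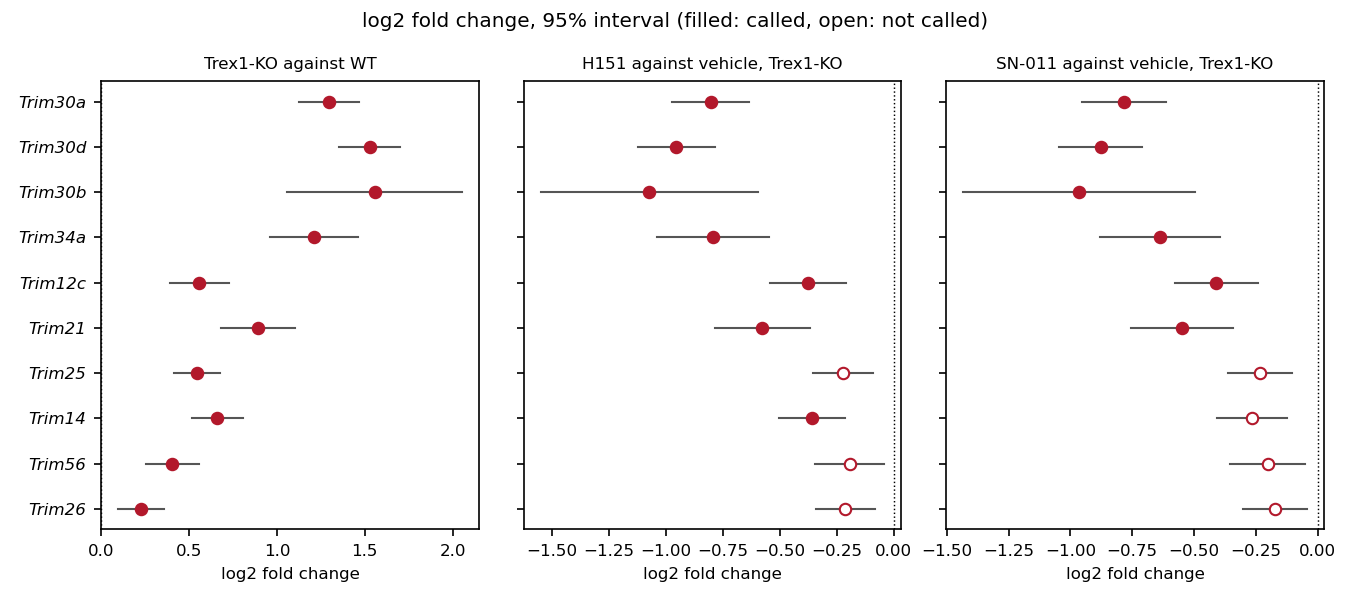
log2 fold change (x axis) of the 10 TRIM genes (y axis) for Trex1-/- against WT and for H151 and SN-011 against vehicle in Trex1-/- BMDMs, with 95% intervals from edgeR. Filled points were called and open points were not. All 10 are filled on the left, 7 in the middle and 6 on the right, and the Trim30 genes and Trim34a lie farthest from 0 in each panel.

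No difference between the antagonists was called on the 10 genes (0 called by the edgeR quasi-likelihood test, 0 at an unadjusted p under 0.05, and 0 with DESeq2 or the edgeR exact test), where 0.158% of all genes were called. The log2 fold change of SN-011 against H151 ran from -0.03 for Trim12c (95% interval -0.20 to 0.14) to 0.16 for Trim34a (-0.10 to 0.41). It was 0.02 for Trim30a (-0.15 to 0.19), 0.08 for Trim30d (-0.09 to 0.25) and 0.09 for Trim14 (-0.05 to 0.24). The interval of Trim30b was the widest, at -0.40 to 0.62 around 0.11. Both SN-011 libraries lay above both H151 libraries for Trim14 and Trim26, 2 of the 10, as for 19.7% of all genes.

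Neither antagonist brought all 10 to the WT level. With H151, 5 TRIM transcripts were still called higher than in WT, beside 6.79% of all genes called higher (edgeR quasi-likelihood test). They were Trim30d at 0.57 ± 0.08 (log2, adjusted p 0.000410), Trim30a at 0.49 ± 0.08 (0.000940), Trim34a at 0.42 ± 0.12 (0.0394), Trim25 at 0.32 ± 0.06 (0.00282) and Trim14 at 0.30 ± 0.07 (0.0105). The others were Trim30b at 0.48 (95% interval -0.06 to 1.02), Trim21 at 0.32 (0.10 to 0.53), Trim56 at 0.21 (0.06 to 0.37), Trim12c at 0.18 (0.01 to 0.35) and Trim26 at 0.01 (-0.12 to 0.14). Trim30a and Trim30d were called in all 15 alternatives. Trim34a was called in 10 of 15 (edgeR or DESeq2 adjusted p 0.00666 to 0.302) and lost with DESeq2, with total counts only and without WT library 1 or 2 or H151 library 2 (0.0651, 0.302 and 0.145). Trim14 was lost without either WT library (0.0737 and 0.0956, range 0.00953 to 0.0956) and Trim25 without WT library 1 (0.0640, range 2.14e-06 to 0.0640). Without WT library 1, in which Trim30b was the higher of the pair, Trim30b passed at 1.02 (0.0218, range 0.0218 to 0.924). Trim21 passed without H151 library 1 (0.0213) and with the filter at 1 count (0.0357, range 0.0213 to 0.412).

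With SN-011, 6 of the 10 were called higher than in WT, beside 6.18% of all genes (edgeR quasi-likelihood test). Trim30d was at 0.65 ± 0.08 (log2, adjusted p 0.000130), Trim34a at 0.57 ± 0.12 (0.00586), Trim30a at 0.51 ± 0.08 (0.000682), Trim14 at 0.39 ± 0.07 (0.00155), Trim21 at 0.34 ± 0.10 (0.0403) and Trim25 at 0.31 ± 0.06 (0.00352). Trim30b at 0.59 (95% interval 0.06 to 1.12), Trim56 at 0.20 (0.05 to 0.36), Trim12c at 0.15 (-0.02 to 0.32) and Trim26 at 0.05 (-0.08 to 0.18) did not pass. Trim14, Trim30a and Trim30d were called in all 15 alternatives. Trim21 was called in 10 of 15 (edgeR or DESeq2 adjusted p 0.00282 to 0.338), and was lost with DESeq2, with total counts only and without WT library 2 or SN-011 library 1 or 2 (0.338, 0.156 and 0.207). Trim25 was lost without WT library 1 or SN-011 library 2 (0.0732 and 0.0914, range 5.03e-06 to 0.0914) and Trim34a without WT library 2 or SN-011 library 2 (0.0859 and 0.0947, range 1.11e-05 to 0.0947). Trim30b passed without WT library 1 (0.0116, range 0.0116 to 0.764), and Trim56 passed with the exact test (0.0418, range 0.0418 to 0.553). These comparisons with WT share the WT libraries with each other and with that of the vehicle-treated cells.

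**Figure D3:**
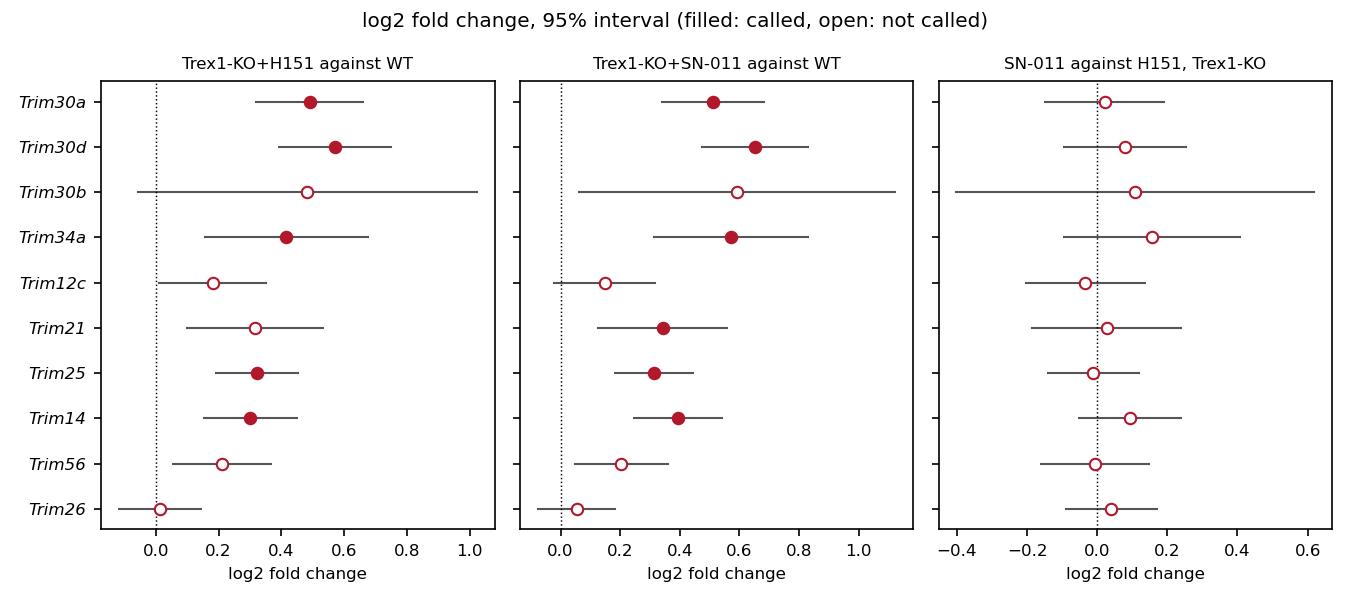
log2 fold change (x axis) of the 10 TRIM genes (y axis) for H151-treated and SN-011-treated Trex1-/- BMDMs against WT, and for SN-011 against H151, with 95% intervals from edgeR and filled points for called genes. Trim30a and Trim30d are filled in both comparisons with WT, and all 10 points are open on the right.

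Of the 10 genes, 5 (Trim34a, Trim12c, Trim30b, Trim30a and Trim30d) lie within 1 cluster of 10 Trim genes on chromosome 7, from base 104218793 to base 104507849 (GRCm38, GENCODE M21). Its order is Trim6, Trim34a, Trim5, Trim12a, Trim34b, Trim12c, Trim30b, Trim30c, Trim30a and Trim30d. Trim21 lies on the same chromosome but outside the cluster (from base 102557921 to base 102565486). All 10 cluster genes were called higher in Trex1-/- than in WT BMDMs (edgeR quasi-likelihood test). The median log2 fold change was 1.29 over the 5 listed antiviral genes and 1.41 over the other 5. This split follows the list of 10 and not function. The 5 antiviral genes outside the cluster had a median of 0.55. Of the 29 tested Trim genes outside the cluster and outside the 10, 0 were called higher and 1 lower, with a median of -0.04, where 9.27% of all genes were called higher and 7.11% lower. This was Trim28, a corepressor that acts with zinc finger proteins, at -0.26 ± 0.06 (edgeR adjusted p 0.0105), whose call was lost without WT library 2 or Trex1-/- library 2 (0.0693 and 0.0968, range over alternatives 0.00194 to 0.0968). Trim28 was also called below WT with SN-011 (-0.28 ± 0.06, edgeR adjusted p 0.0105), and this was lost without WT library 2 or SN-011 library 1 or 2 (0.0703, 0.0634 and 0.0895). A further 24 Trim genes, for 53 in all, had too few counts to be tested, and 10 of these were at 0 in every library.

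The neighbours of the antiviral genes in the cluster were read in the same way. Trim30c was at 7.94 and 6.97 CPM in WT, 25.6 and 27.5 CPM in Trex1-/- cells, 9.52 and 12.3 CPM with H151, and 13.1 and 12.6 CPM with SN-011. Like the other Trim30 genes it was higher without Trex1 (log2 fold change 1.83 ± 0.15, edgeR adjusted p 9.58e-07) and lower with H151 (-1.28 ± 0.14, 0.000115) and SN-011 (-1.05 ± 0.14, 0.000564). Trim6 was at 2.21 and 2.50 CPM in WT, 6.03 and 6.52 CPM in Trex1-/- cells, 5.13 and 5.64 CPM with H151, and 5.35 and 4.50 CPM with SN-011. It was higher without Trex1 (1.41 ± 0.22, edgeR adjusted p 0.000440), was not called with H151 (-0.22, 95% interval -0.64 to 0.20) or SN-011 (-0.34, -0.76 to 0.08), and was still called above WT with both (1.19 ± 0.22 and 1.07 ± 0.22, edgeR adjusted p 0.00290 and 0.00605). Trim30c was also called above WT with both (0.56 ± 0.16 with H151 and 0.79 ± 0.16 with SN-011, edgeR adjusted p 0.0359 and 0.00396). Its H151 call held in 6 of the 15 alternatives (range 0.0128 to 0.283) and was lost with DESeq2, total counts only, the exact test, a fit of only the 2 groups and without WT library 1 or 2, H151 library 2 or SN-011 library 1 or 2 (0.0912, 0.229, 0.283, 0.0548 and 0.0599), and its SN-011 call in 14 (lost without WT library 2, 0.0528). Trim5 was called above WT with H151 (0.38 ± 0.10, edgeR adjusted p 0.0244, called in 10 of 15 alternatives, range 0.0121 to 0.181) and not with SN-011 (0.30, 95% interval 0.08 to 0.51). The H151 call of Trim5 was lost with DESeq2, with total counts only and without WT library 1 or 2 or H151 library 1 (0.0926, 0.181 and 0.165). The SN-011 call of Trim6 above WT was lost without WT library 1 or SN-011 library 1 (0.0619 and 0.0771, range 0.00078 to 0.0771). Trim5 rose by 0.68 ± 0.10 without Trex1 (edgeR adjusted p 0.000267) and Trim12a, named after its values were seen, by 0.58 ± 0.09 (0.000629). With H151 and SN-011, Trim5 was at -0.30 (95% interval -0.51 to -0.09, edgeR adjusted p 0.215) and -0.39 (-0.60 to -0.18, 0.0613), and Trim12a at -0.32 (-0.52 to -0.12, 0.133) and -0.27 (-0.47 to -0.07, 0.214). Neither was called, but these intervals lie below 0 and overlap those of Trim12c, and both antagonist libraries lay below both vehicle libraries for both genes and for Trim6, as for 17.9% of all genes with H151 and 21.6% with SN-011. Trim34b, also named after its values were seen, had 0 and 5 counts in WT and 8 and 24 in Trex1-/- cells, so its call (edgeR adjusted p 0.0398) rests on few reads. It was called in 8 of the 13 alternatives that tested it (range 0.00239 to 0.332), and was lost with DESeq2 and without WT library 1, Trex1-/- library 2, SN-011 library 1 or SN-011 library 2 (0.253, 0.332, 0.0677 and 0.0719). In the cluster, 5 of 5 antiviral genes and 1 of the other 5 were called lower with H151, and the same numbers with SN-011, beside 1.84% and 2.22% of all genes. The medians were -0.80 and -0.32 with H151 and -0.78 and -0.39 with SN-011. Among all Trim genes other than the 10, the 1 called lower became 2 with the replicate block and with the filter at 1 count for each antagonist, and for SN-011 also with the exact test and without either H151 library. Whether the cluster genes differed from each other in their response was not tested. Coding sequences in the cluster are close, at 98.2% identity between Trim34a and Trim34b and 96.6% between Trim12c and Trim5, so reads can be split or lost between these pairs.

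**Figure D4:**
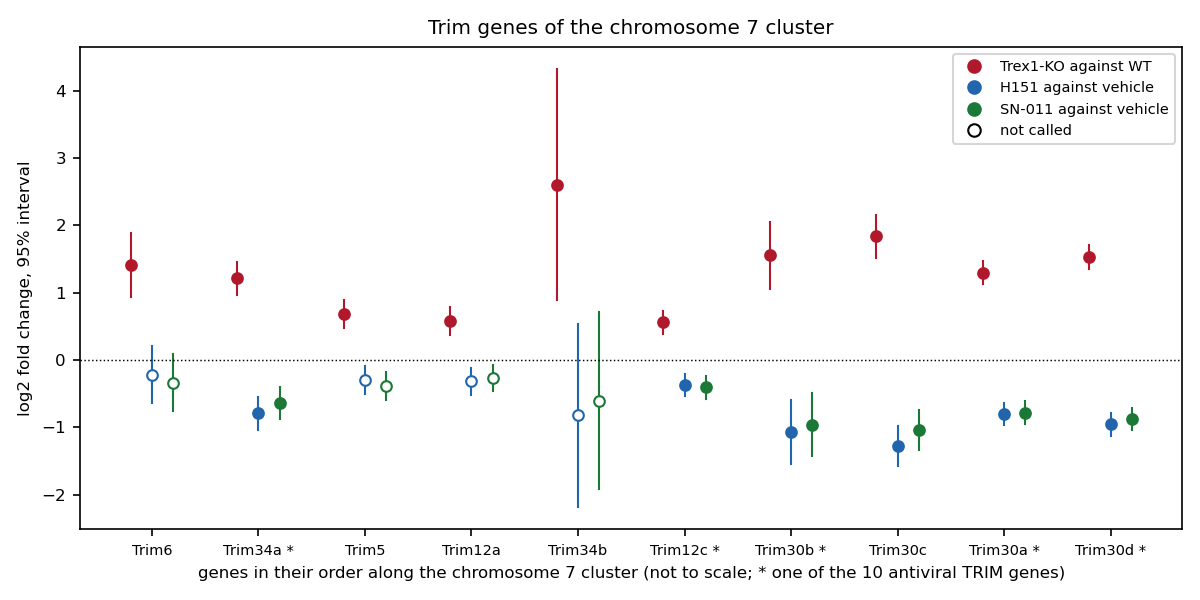
log2 fold change (y axis, with 95% intervals from edgeR) of the 10 Trim genes of the chromosome 7 cluster in their order along the chromosome (x axis, not to scale), with filled points for called genes. All 10 are filled for Trex1-/- against WT, while for H151 and SN-011 the filled points are the 5 antiviral genes and Trim30c. The wide intervals of Trim34b go with its 0 to 24 counts.

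**Figure D5:**
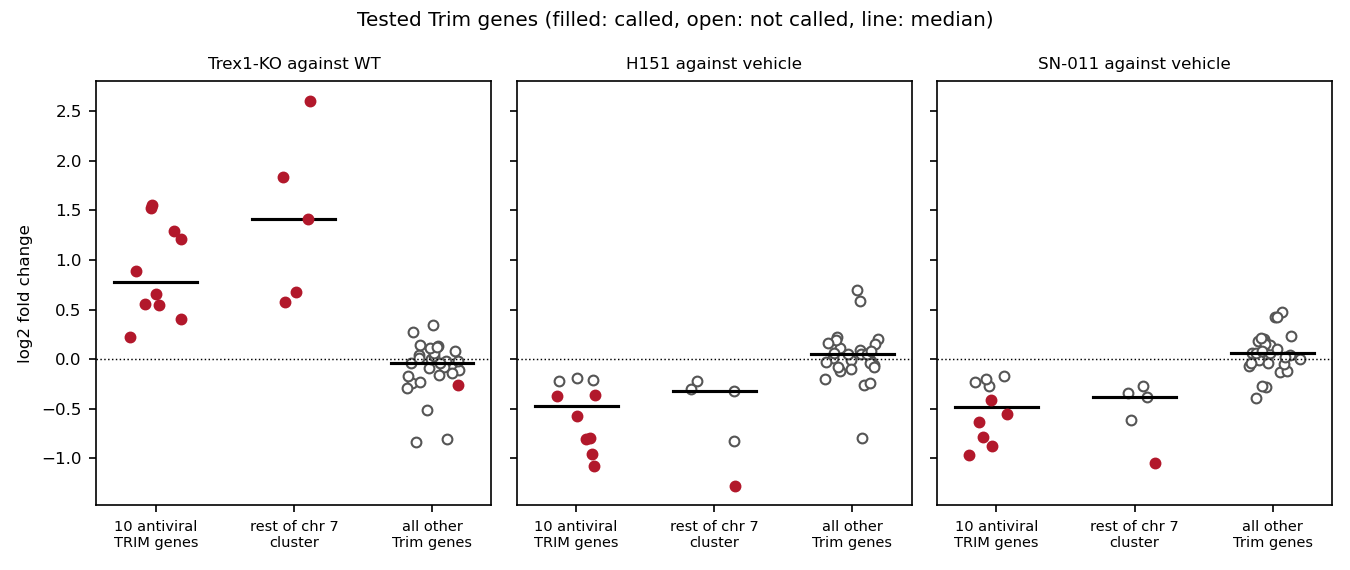
log2 fold change (y axis) of all 44 tested Trim genes in 3 comparisons, split into the 10 antiviral genes, the other 5 genes of the chromosome 7 cluster and the remaining 29, with a line at each median. For Trex1-/- against WT the medians are 0.78, 1.41 and -0.04.

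The sensors and signalling proteins that TRIM proteins act on were read from a list of 25 genes, all of which were tested. Without Trex1, 10 rose and 0 fell (edgeR quasi-likelihood test), with a median of 0.23, beside 9.27% of all genes called higher. With total counts only, 9 were called higher and 1, Vcp, named after its values were seen, was called lower. Of the 25, 6 (Ddx58, Ifih1, Dhx58, Zc3hav1, Irf7 and Tlr3) belong to M7core, so their direction is not independent evidence. The largest rises were in Irf7, a transcription factor of the interferon response (2.62 ± 0.12, adjusted p 7.16e-09), Dhx58, which encodes the RIG-I-like receptor LGP2 (1.51 ± 0.12, 6.27e-07) and Ddx58, which encodes RIG-I, the substrate of TRIM25 (1.47 ± 0.09, 5.71e-08). With H151, 9 of the 25 fell, beside 1.84% of all genes, led by Dhx58 (-1.02 ± 0.11, edgeR adjusted p 0.000121), Ddx58 (-0.94 ± 0.09, 2.68e-05) and Irf7 (-0.93 ± 0.12, 0.000324). With SN-011, 8 fell, beside 2.22% of all genes, led by Ddx58 (-0.91 ± 0.09, edgeR adjusted p 4.02e-05), Dhx58 (-0.87 ± 0.11, 0.000478) and Ifih1, which encodes the RNA sensor MDA5 (-0.86 ± 0.09, 0.000112). In this comparison leaving out SN-011 library 1 left 4 called. No gene of the list was called between the antagonists, with 2 at an unadjusted p under 0.05 and 1 called without H151 library 2. Against WT, 8 were called higher with H151 (4 without WT library 2) and 6 with SN-011, beside 6.79% and 6.18% of all genes. With total counts only, 6 were called higher with H151 and 1, Nlrp3, also named after its values were seen, was called lower. Of the 8, Ticam1, named after its values were seen, had not been called without Trex1 alone (0.23 ± 0.11, edgeR adjusted p 0.199, and 0.38 ± 0.11, 0.0416, with H151). Irf7 stood highest, at 1.69 ± 0.12 (edgeR adjusted p 1.23e-06) and 1.87 ± 0.12 (5.01e-07), followed by Tlr3, an endosomal RNA sensor, with H151 (0.59 ± 0.11, 0.00211) and by Dhx58 with SN-011 (0.64 ± 0.12, 0.00257). The next was Ddx58 in both (0.53 ± 0.09, 0.00108, and 0.56 ± 0.09, 0.000714). The Dhx58 call was lost without SN-011 library 2 (0.0507, range 1.21e-10 to 0.0507).

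Over the 8 libraries, the log2 CPM of the 45 pairs of antiviral TRIM genes had Pearson r from 0.789 (Trim30b with Trim25) to 0.997, with a median of 0.937. The points share 4 groups, so these values describe the difference between groups more than any link within them. The genes outside the list with the profile most like the mean of the 10 standardized genes were Themis2 (r = 0.998), Fbxw17 (0.997) and Parp9 (0.997), over the same 8 libraries.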

How the data were processed

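The deposited values are raw counts of read pairs per gene, made by the authors from poly(A) RNA. The labels name HISAT2, HTSeq and mm10, while the methods of the study name hisat2 and featureCounts. Versions and the strand setting are not given in the sources used here. Reads in overlapping genes were checked on the counts: among genes fully covered by exons of another gene, 0 of 158 had any count where that gene was on the opposite strand and 2 of 299 where it was on the same strand, so shared reads were not counted and strand was not used. Symbols and positions came from GENCODE M21 (GRCm38), which held 54495 of 54532 identifiers.

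Counts were tested with edgeR 4.0.16 in R 4.3.3, by the two-sided quasi-likelihood F-test on all 8 libraries with 1 mean per group, TMM factors (0.973 to 1.037) and filterByExpr (minimum count 10, minimum total 15), which kept 14591 genes. Genes with a Benjamini-Hochberg adjusted p under 0.05 were called. SE was taken from the log2 fold change and the F statistic (their ratio, with F under a square root) and is approximate. The script was tested on simulated data. Alternatives were DESeq2 1.42.0, total counts only, a filter at 1 count, a stricter filter (1 CPM in 4 libraries), the edgeR exact test, a fit of only 2 groups, the replicate block and leaving out each library, 15 in all.

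Named genes are the 10 TRIM genes; the most raised and most lowered called genes of each comparison among other Trim genes and TRIM partners (at most 3 each way, average log2 CPM of at least 1); Trex1; and the 3 genes with the most similar profile. Other genes were named after their values were seen, as stated beside them. The genes and lists were chosen with earlier results of these data known. Reads were counted without molecular identifiers. The SE and p-values take in the spread between libraries of a group as well as counting error.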

Additional observations from a re-analysis of the deposited data

How the results depend on the processing

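Of the calls on the 10 TRIM genes, 9 of 10 against WT, 4 of 7 with H151 and 2 of 6 with SN-011 held in all 15 alternatives. Leaving out 1 library at a time gave 9 to 10 TRIM genes called for Trex1-/- against WT, 5 to 7 for H151 and 2 to 8 for SN-011 against vehicle, 0 for SN-011 against H151, and 3 to 6 for H151 and 3 to 6 for SN-011 against WT. Over all genes these fits called 1556 to 2651, 231 to 357, 131 to 493, 2 to 291, 971 to 1790 and 909 to 1933 genes in the same order. The filter at 1 count called 525 genes for H151 against vehicle, 679 for SN-011 against vehicle and 266 for SN-011 against H151, in place of 325, 340 and 23. The exact test called 568 and 72 for the last 2, and DESeq2 38 for SN-011 against H151. With total counts only, the genes called for Trex1-/- against WT were 946 higher and 1598 lower in place of 1352 and 1038, the median of all genes moved by -0.08, and all TRIM genes except Trim26 were still called higher. The causes were not tested.

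The numbers in the titles are not said to mark an animal or a day. With each group's mean taken away, libraries with the same number correlated at 0.19 between vehicle and H151. The value was -0.01 between vehicle and SN-011 and 0.06 between WT and vehicle. Each mean rests on 2 libraries, so these values cannot decide whether a shared number marks a pair. With the replicate block, 10, 8 and 8 TRIM genes were called for Trex1-/- against WT, H151 and SN-011, 0 between the antagonists, and 5 and 6 against WT. The block called 44 of all genes between the antagonists.

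Values near 0 changed sign. Leaving out 1 library gave -0.132 to 0.0662 for Trim12c, -0.0782 to 0.149 for Trim21, -0.0635 to 0.0402 for Trim25, -0.0399 to 0.089 for Trim30a and -0.0785 to 0.0671 for Trim56 for SN-011 against H151, and -0.0189 to 0.0233 for Trim26 with H151 against WT. Trim26 was at -0.0472 with total counts only and -0.0043 with the filter at 1 count in the last comparison, and at -0.00338 with total counts only for SN-011 against WT. None of these was called. With 2 libraries a group, the scarce Trim30b had the widest intervals.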
